A study of Mus musculus with 6 samples.

Results

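Interferon-stimulated genes are the genes that a cell switches on when interferon binds its receptors, and 42 of them were followed here across 6 RNA-seq libraries of the mouse olfactory bulb. They were picked by symbol, as 42 of the 55573 genes in the count table, and all 42 symbols were found. By their best known inducer, 25 were grouped as targets of type I interferon and 6, all guanylate-binding or immunity-related GTPases, as targets of type II interferon (interferon gamma), while the other 11 were placed in neither group. Levels are given as CPM, the count scaled to the size of the library. A minimum of 1 CPM in at least 2 libraries was passed by 40 of the 42, and Isg15 and Oas3 lay below it. A member with low counts in the control could pass this minimum through the group where it was high, so counts over the 40 are counts of tested members and not of all members.

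Type I interferons (the interferon alpha family and interferon beta) bind a receptor of Ifnar1 and Ifnar2. The kinases Jak1 and Tyk2 then phosphorylate transcription factors, among them Stat2, which join Irf9 and bind the interferon-stimulated response element in target promoters. Interferon gamma, made mainly by T and NK cells, acts through Ifngr1 and Ifngr2, and its signal ends on the gamma-activated site. It also induces factors of the IRF family that bind the response element. In the brain, microglia, the resident macrophages, respond strongly to both kinds of interferon. The products of the target genes sense viral nucleic acids, block viral translation and entry, attack the vacuoles of intracellular pathogens and dampen the signal itself.

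The libraries were made from cells of the olfactory bulb of male C57BL/6 mice aged 3 months, which had received a lentivirus in the rostral migratory stream, the path that newborn neurons take to the bulb. The control virus carried the Ca2+ sensor Twitch-2B alone by the labels and together with nuclear mCherry by the study's methods. The Kv1.2 virus carried Twitch-2B with the voltage-gated K+ channel Kv1.2, and the Kir2.1 virus carried it with the inwardly rectifying K+ channel Kir2.1. Every group thus received a lentivirus and the sensor, and there was no uninjected group. Cells were taken 9 days after injection and sorted as single, live cells by Twitch-2B fluorescence, without a marker of cell type. Each of the 2 libraries of a group came from at least 3000 cells pooled from 2 mice, so that 4 mice stood behind a group and 12 behind the study. The labels give the cell type as neurons, and the purpose was to ask how channels that lower activity change the expression of genes in adult-born cells.

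Libraries held 8871595 to 13632970 counts, and the 2 libraries of a group correlated at Pearson's r of 0.597 for control, 0.699 for Kv1.2 and 0.652 for Kir2.1 libraries across genes (log2 of CPM + 1, genes not being independent). Marker genes went against the label. The 12 microglia markers, all at 1 CPM or more in all 6 libraries, held 5.09% and 0.521% of the counts for control, 8.65% and 8.28% for Kv1.2 and 5.19% and 8.84% for Kir2.1 libraries, so that control replicate 2 stood apart from the rest. The summed CPM of 10 neuroblast and neuron markers was 473 and 2334 for control, 43.7 and 105 for Kv1.2 and 89.2 and 91.8 for Kir2.1 libraries, and Dcx, the microtubule protein of migrating neuroblasts, was at 0 counts in 3 of the 4 channel libraries. In such bulk samples, fewer cells of a type and less RNA per cell cannot be told apart.

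**Figure D1:**
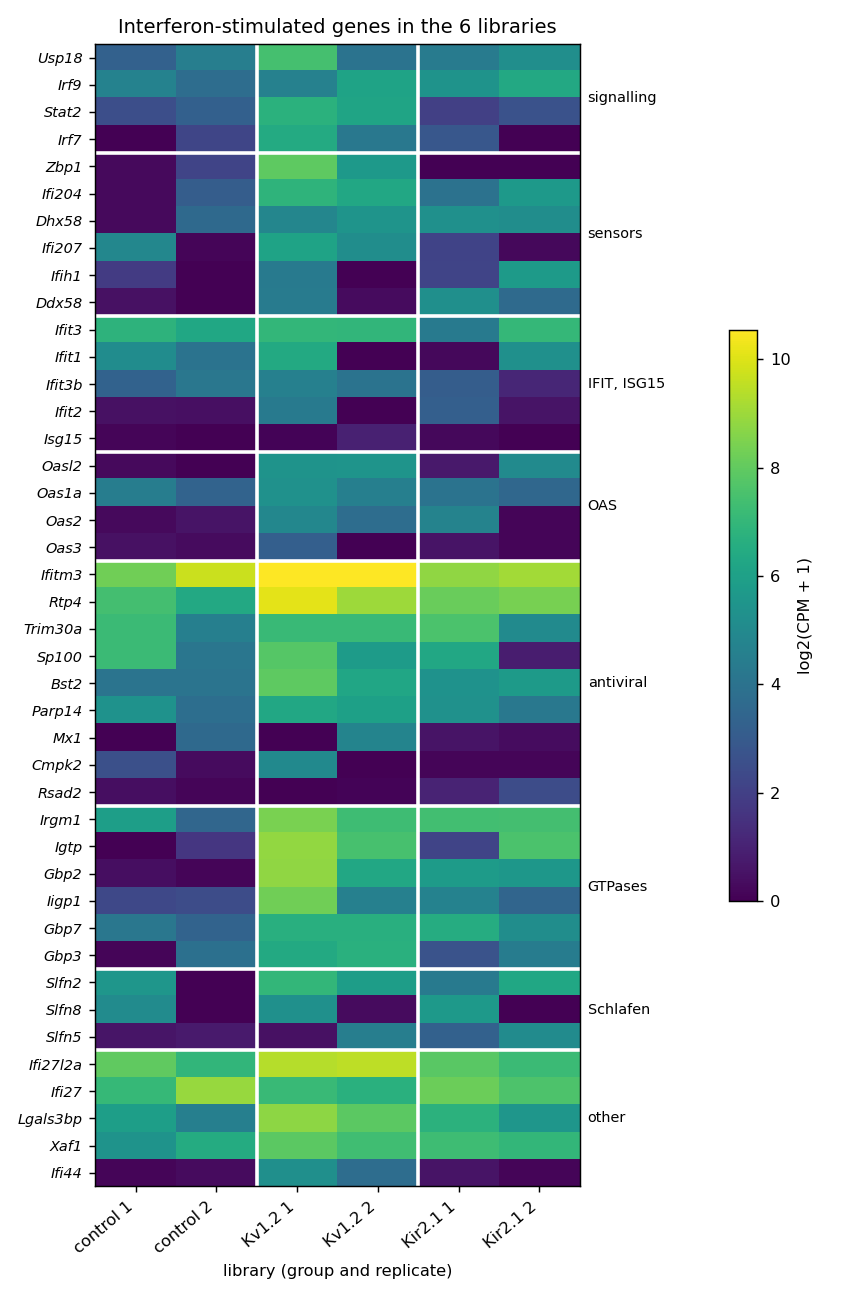
Levels of the 42 interferon-stimulated genes, as log2(CPM + 1) on the colour scale, with 1 row per gene, ordered by role, and 1 column per library (2 a group). Each GTPase row is darker in both control columns than in both Kv1.2 columns, and Zbp1 is bright only in the Kv1.2 columns.

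Together the 42 genes held 0.173% and 0.172% of the counts for control, 0.726% and 0.468% for Kv1.2 and 0.312% and 0.249% for Kir2.1 libraries. The order of the groups was the same in both parts of the set. The summed CPM of the 25 type I targets was 845 and 521 for control, 3269.5 and 2077 for Kv1.2 and 1114 and 1128 for Kir2.1 libraries. That of the 6 type II targets was 80.5 and 39.99 for control, 1737 and 639.9 for Kv1.2 and 344 and 467 for Kir2.1 libraries. In both sums the 2 Kv1.2 libraries lay above the other 4 and the 2 Kir2.1 libraries lay between them and the control, without overlap between groups. Set against the summed CPM of the 12 microglia markers, which also differed between the groups, the type II targets came to 0.160% and 0.678% for control, 1.84% and 0.736% for Kv1.2 and 0.825% and 0.514% for Kir2.1 libraries. On this scale control replicate 2 lay between the 2 Kir2.1 libraries. For all 42 genes the same ratio was 3.40% and 33.0% for control, 8.39% and 5.65% for Kv1.2 and 6.02% and 2.82% for Kir2.1 libraries, so that the control library with few microglia counts had the highest ratio. The part that the amount of microglia RNA plays in these levels was not tested.

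**Figure D2:**
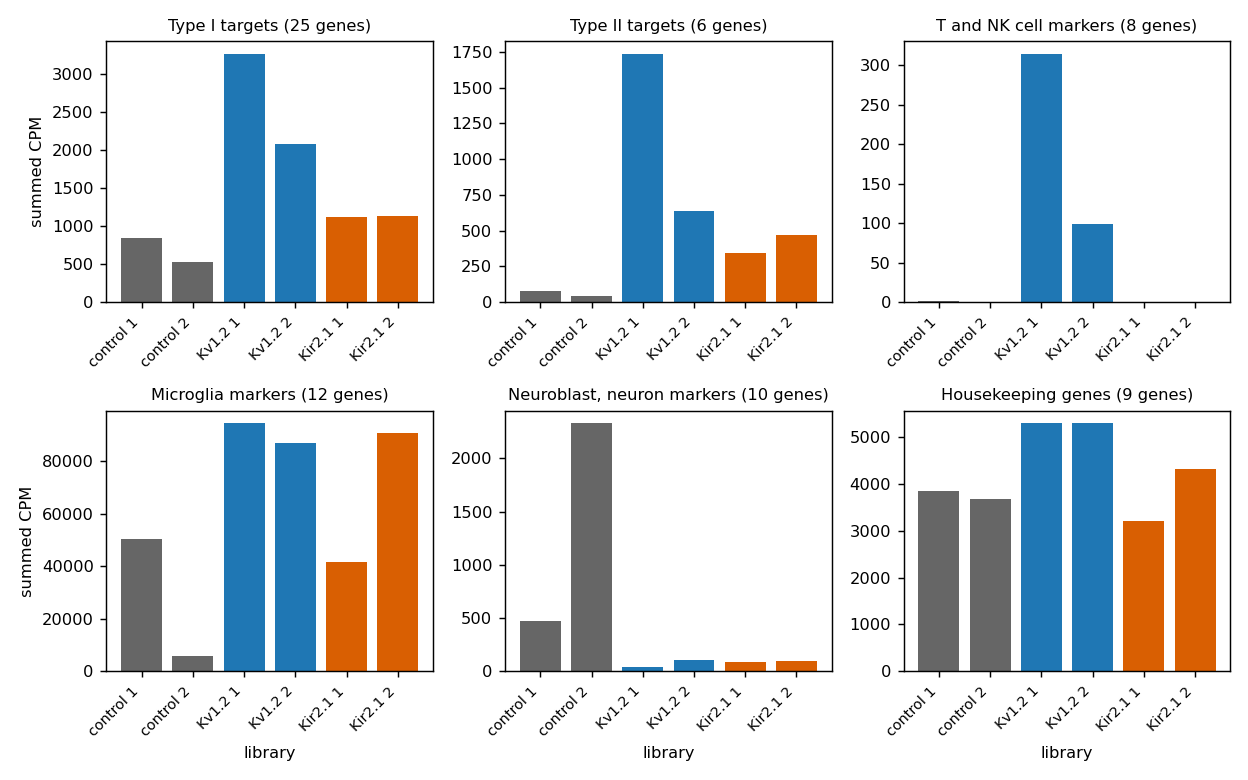
Summed CPM of gene lists in each library, with bars starting at 0 and colours for the groups (grey control, blue Kv1.2, orange Kir2.1). The 6 type II targets and the 8 T and NK cell markers are highest in Kv1.2 replicate 1, at 1737 and 314.5 CPM, and control replicate 2 has the lowest microglia and the highest neuron bar.

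Levels per kilobase of exon differed widely between the members. Ifitm3, a membrane protein that blocks entry of enveloped viruses, was the most abundant, at a mean of 1252 CPM per kilobase over the 6 libraries. Ifi27l2a, a small mitochondrial protein, followed with 768.3 CPM per kilobase, and Rtp4, a chaperone of G protein-coupled receptors, with 193.7 CPM per kilobase. The libraries of these 3 genes spread from 451.3 to 2204 CPM per kilobase for Ifitm3, from 266.3 to 1574 for Ifi27l2a and from 38.6 to 520.7 for Rtp4, so that all 3 ranges overlapped. At the bottom lay Isg15, a ubiquitin-like modifier, with 0.317 CPM per kilobase, Rsad2 with 0.235 and Oas3 with 0.222.

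In the comparison of Kv1.2 with the control, 38 of the 40 tested members had a log2 fold change above 0 and 2 had one below, with a median of 2.66, against −0.12 over all 12275 genes tested. At an adjusted p under 0.05 in edgeR's quasi-likelihood test, 0 members passed, as did 0% of all genes tested. At an unadjusted p under 0.05 (not corrected for the number of genes), 14 members were higher and 0 lower, where the background was 3.23% of all genes higher and 8.81% lower. Both Kv1.2 libraries lay above both control libraries for 25 members, beside 19.3% of all genes. They lay below them for 1, Rsad2, on 1 count against 4 in the control, beside 24.9% of all genes. Other tests on the same counts called more genes. DESeq2 called 11 members at an adjusted p under 0.05, among 10.6% of all genes, and edgeR's likelihood ratio test called 6, among 5.89%. The median of the members moved with single libraries. It was 1.95 without Kv1.2 replicate 1, 3.02 without Kv1.2 replicate 2 and 2.20 without control replicate 2.

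For Kir2.1 against the control, 27 of the 40 tested members lay above 0 and 13 below, with a median log2 fold change of 0.92 against 0.04 over all genes. Again 0 members and 0% of all genes passed an adjusted p under 0.05 in edgeR's quasi-likelihood test. At the unadjusted threshold 3 members were higher, namely Gbp2, Igtp and Oasl2, and 1, Zbp1, was lower, beside 3.25% and 6.15% of all genes. Gbp2 and Oasl2 were below 1 CPM in both control libraries and passed the count minimum through channel libraries alone. The median of the members was 1.31 without control replicate 2 and 0.56 without Kir2.1 replicate 1. The libraries did not overlap for 17 members higher and 3 lower in the Kir2.1 group, beside 19.9% and 22.5% of all genes. DESeq2 called 5 members, of which Zbp1 was lower, among 8.06% of all genes, and the likelihood ratio test called Gbp2 alone, among 1.83%.

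Set against each other, the channel groups differed in the size of these changes. In Kir2.1 against Kv1.2, 32 of 40 members lay below 0 and 8 above, with a median of −1.40 against 0.13 over all genes. No member passed an adjusted p under 0.05 in edgeR's quasi-likelihood test, nor did any gene (0 members, 0% of all genes). At an unadjusted p under 0.05, 8 members were lower and 1, Rsad2, was higher, beside 2.05% lower and 4.02% higher of all genes. Without overlap of the libraries, 19 members were lower and 2, Rsad2 and Ifi27, higher, beside 16.7% and 21.5% of all genes. DESeq2 called 3 members, Zbp1, Ifi44 and Stat2, among 5.25% of all genes, and the likelihood ratio test called Zbp1, among 0.554%. Ifi44 passed the count minimum through the Kv1.2 libraries alone, and Rsad2 through the Kir2.1 libraries alone. The median of the members was −0.65 without Kv1.2 replicate 1 and −1.71 without Kv1.2 replicate 2.

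With the channel groups pooled against the control, 33 of 40 members lay above 0, with a median of 1.65 against −0.19 over all genes, and 9 were higher at an unadjusted p under 0.05, where 2.85% of all genes were higher. The count was 3 without Kv1.2 replicate 1 and 6 without Kir2.1 replicate 1. All 4 channel libraries exceeded both control libraries for 11 members, beside 8.52% of all genes. These 11 were Gbp2, Irgm1, Gbp7, Igtp, Iigp1, Bst2, Rtp4, Oasl2, Xaf1, Ifi204 and Dhx58. The smallest adjusted p in edgeR's quasi-likelihood test was 0.0960 for Gbp2, so that 0 members were among the 0.0244% of genes that passed over both groups.

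**Figure D3:**
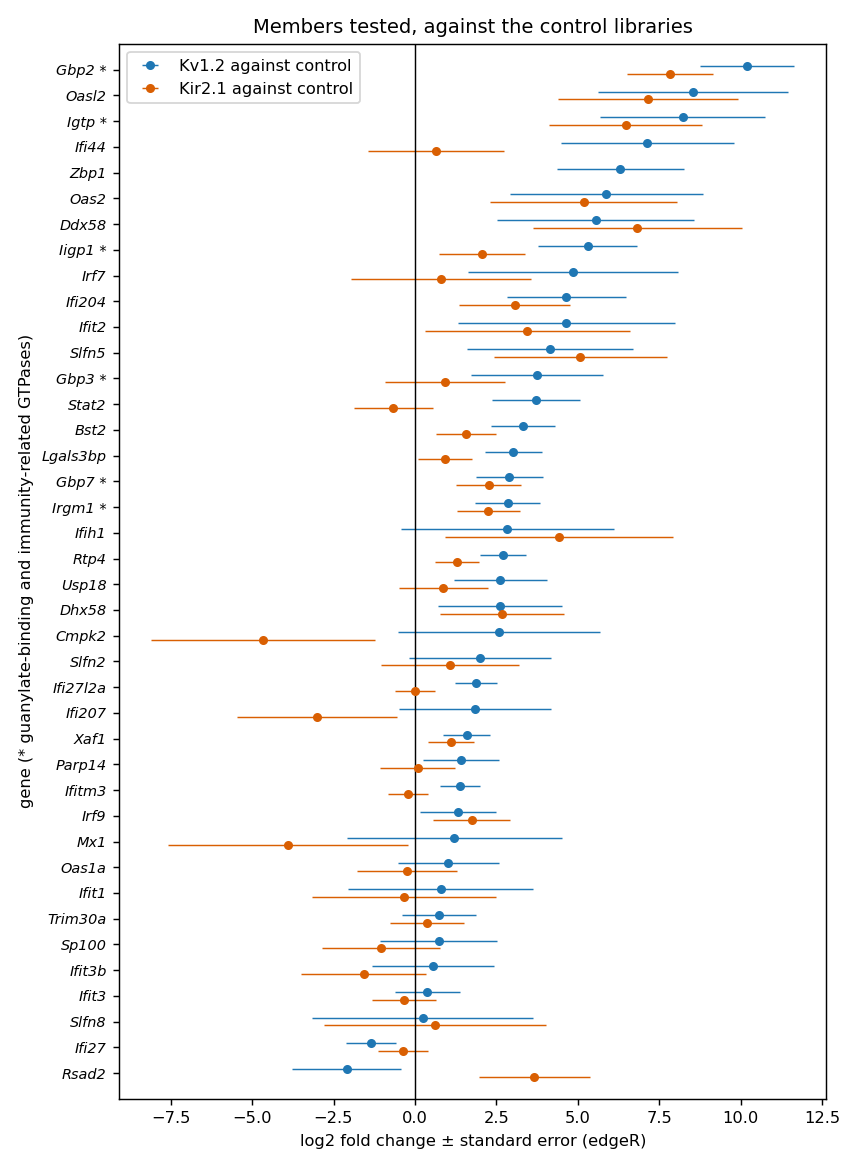
Log2 fold changes of the 40 tested members against the control, with standard errors from edgeR's quasi-likelihood test (blue Kv1.2, orange Kir2.1, a star for the 6 type II targets), ordered by the Kv1.2 value. Most blue points lie to the right of 0, with a median of 2.66, and most orange points lie closer to it, with a median of 0.92. Zbp1 has no orange point because neither Kir2.1 library held a count.

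Among the GTPases that interferon gamma induces, all 4 channel libraries exceeded both control libraries for 5 of 6, all but Gbp3, beside 8.52% of all genes. Gbp2, a guanylate-binding protein that coats the vacuoles of intracellular pathogens, was at 0.299 and 0.120 CPM in control, 447 and 79.7 CPM in Kv1.2 and 54.9 and 46.7 CPM in Kir2.1 libraries. The control values came from 3 and 1 counts, and all 4 channel libraries were far above them. Gbp2 thus passed the count minimum through the channel libraries alone. Its log2 change came to 10.20 (standard error 1.44, unadjusted p = 0.000183) with Kv1.2 and 7.82 (standard error 1.32, unadjusted p = 0.000555) with Kir2.1, with an adjusted p of 0.257 and 0.359 in edgeR's quasi-likelihood test. DESeq2 gave an adjusted p of 4.28e-11 and 9.21e-07 and the likelihood ratio test 2.49e-06 and 0.000259 for the same comparisons. Over both channel groups Gbp2 reached 9.01 (standard error 1.36, unadjusted p = 0.000274), and between them −2.37 (standard error 0.9995, unadjusted p = 0.0488).

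Igtp and Irgm1 are immunity-related GTPases, membrane-remodelling proteins that regulate the loading of their relatives onto pathogen vacuoles. Igtp was at 0 and 2.15 CPM in control, 461 and 179 CPM in Kv1.2 and 3.44 and 187 CPM in Kir2.1 libraries, so that Kir2.1 replicate 1 lay close to the control and Kir2.1 replicate 2 at the level of the Kv1.2 libraries. Its log2 change came to 8.22 (standard error 2.54, unadjusted p = 0.0141) with Kv1.2 and 6.47 (standard error 2.36, unadjusted p = 0.0285) with Kir2.1. Irgm1 was at 58.8 and 10.3 CPM in control, 343 and 155 CPM in Kv1.2 and 163 and 167 CPM in Kir2.1 libraries. All 4 channel libraries exceeded both control libraries, at 2.85 (standard error 0.99, unadjusted p = 0.0234) with Kv1.2 and 2.26 (standard error 0.97, unadjusted p = 0.0518) with Kir2.1, while the channel groups overlapped with a difference of −0.59 (standard error 0.93, unadjusted p = 0.545).

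Iigp1, an effector GTPase that ruptures parasite vacuoles, was at 3.88 and 4.43 CPM in control, 305 and 23.3 CPM in Kv1.2 and 24.5 and 9.96 CPM in Kir2.1 libraries. One library, Kv1.2 replicate 1, was far above the other 5, and the Kv1.2 and Kir2.1 groups overlapped. The log2 fold change was 5.30 (standard error 1.52, unadjusted p = 0.0099) with Kv1.2 and 2.05 (standard error 1.32, unadjusted p = 0.163) with Kir2.1. Gbp7, a guanylate-binding protein that also supports oxidative killing of microbes, was at 17.3 and 9.22 CPM in control, 98.9 and 99.7 CPM in Kv1.2 and 92.5 and 34.9 CPM in Kir2.1 libraries, and its 2 Kv1.2 libraries nearly coincided. It gave 2.90 (standard error 1.03, unadjusted p = 0.0258) and 2.26 (standard error 1.01, unadjusted p = 0.0593) against the control, without overlap in either. Gbp3, its neighbour on the chromosome, was at 0.0996 and 13.8 CPM in control, 82.8 and 104 CPM in Kv1.2 and 5.53 and 20.8 CPM in Kir2.1 libraries, which left the Kir2.1 libraries overlapping the control. Gbp3 gave 3.75 (standard error 2.03, unadjusted p = 0.107) in Kv1.2 and 0.93 (standard error 1.84, unadjusted p = 0.63) in Kir2.1 cells, and the latter turned sign when control replicate 1 or Kir2.1 replicate 2 was left out.

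As a list, the 6 type II targets had 6 of 6 log2 fold changes above 0 in the Kv1.2 group with a median of 4.52. At an unadjusted p under 0.05, 5 of them were higher, beside 3.23% of all genes. In the Kir2.1 group 6 of 6 were above 0 with a median of 2.26. At that p 2 of them, Gbp2 and Igtp, were higher, beside 3.25% of all genes. All 6 lay below 0 in Kir2.1 against Kv1.2, where the median was −2.06. Gbp2 and Iigp1 were lower there at an unadjusted p under 0.05, beside 2.05% of all genes. The medians depended on single libraries. Without Kv1.2 replicate 1 the median was 3.40 in the Kv1.2 group and −0.65 between the channel groups, and without control replicate 2 it was 7.47 with Kv1.2 and 4.46 with Kir2.1.

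**Figure D4:**
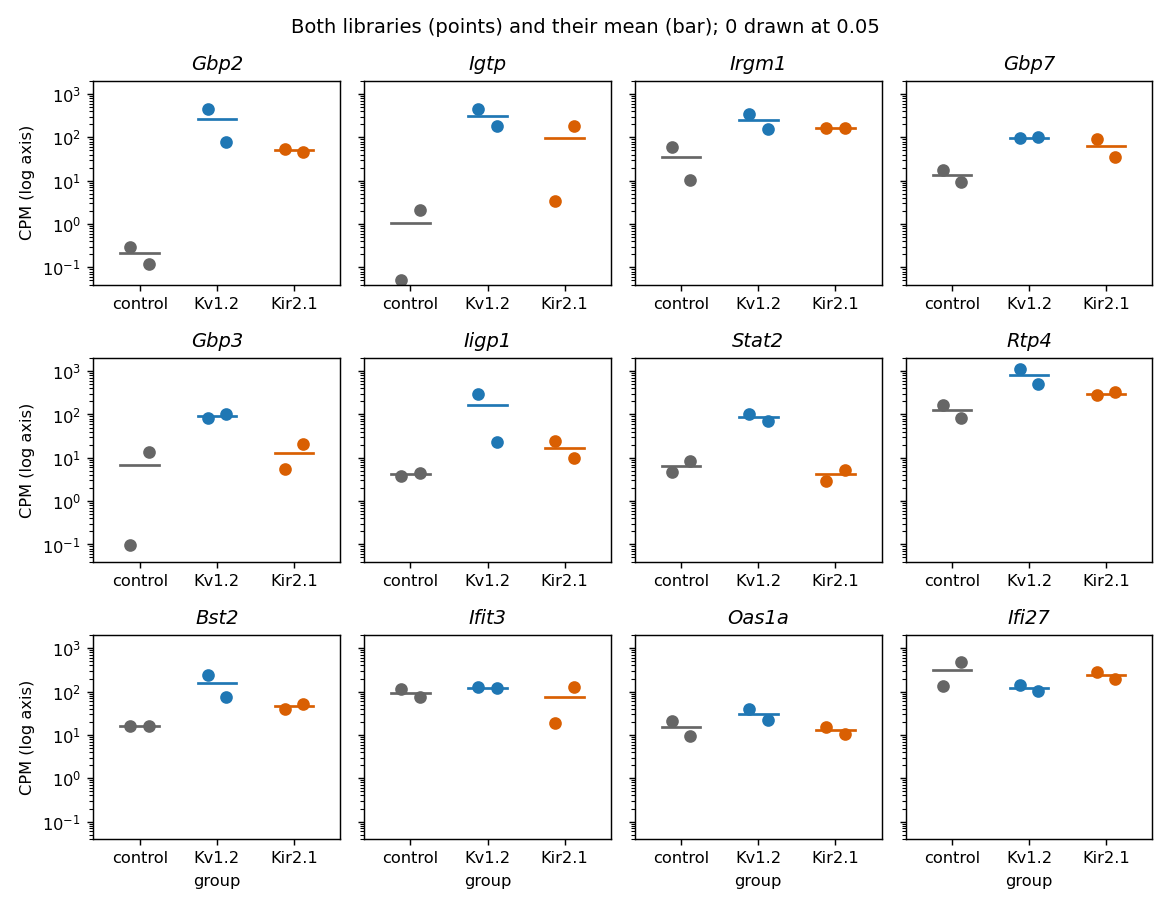
CPM of 12 members on a log axis in both libraries of each group (points), with the group mean (bar) and a value of 0 drawn at 0.05. Both channel groups lie above the control for Gbp2, Irgm1 and Gbp7, the Kv1.2 group alone lies apart for Stat2, and the groups overlap or lie close together for Ifit3 and Oas1a.

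In sum, markers of cells that make interferon gamma were higher in the Kv1.2 libraries than in the other 4. The 8 T and NK cell markers summed to 0.797 and 0.120 CPM for control, 314.5 and 98.7 CPM for Kv1.2 and 0.544 and 0.272 CPM for Kir2.1 libraries. The Kir2.1 sums lay within the range of the control. At 1 CPM or more were 5 and 4 of the 8 in the Kv1.2 libraries and 0 in each of the other 4, and Cd8a was at 0 counts in all 6. The 6 markers of monocytes and neutrophils summed to 3.83 to 29.2 CPM for control, 26.0 and 159.3 CPM for Kv1.2 and 0.272 to 0.362 CPM for Kir2.1 libraries. Those of border-associated macrophages summed to 21.0 to 59.1 CPM for control, 47.3 and 53.0 CPM for Kv1.2 and 1622 and 145.5 CPM for Kir2.1 libraries, and 6 of 6 were at 1 CPM or more in Kir2.1 replicate 1. The part of these cells in the values of either channel group was not tested.

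Promoter sequence was read for the members, since the signals of type I and type II interferon end on different elements. Of the 42 members, 31 were in a RefSeq table of 300-base promoters (250 bases before and 50 after the start site, build GRCm38.p6), and 11 were not. These were Iigp1, Rtp4, Usp18, Zbp1, Ifi204, Ifi27, Ifi27l2a, Oas2, Mx1, Parp14 and Dhx58. The interferon-stimulated response element was searched on both strands as GAAANNGAAA and the gamma-activated site as TTCNNNGAA, which reads the same on both strands in its fixed letters. Overlapping matches were allowed. A gene with several promoters counted if any of them held a match. The response element was present in 5 of 5 type II targets, 12 of 19 type I targets (63.2%) and 21 of 31 members (67.7%), and in 3.99% of all 27025 genes of the promoter set. The gamma-activated site was present in 2 of 5, 3 of 19 (15.8%) and 6 of 31 (19.4%), and in 9.55% of all these genes. A match is a description of the letters and not of a bound site.

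**Figure D5:**
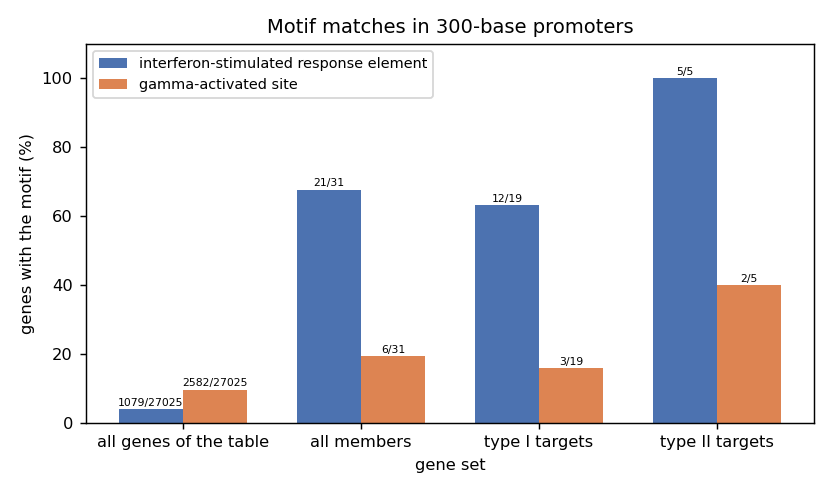
Percent of genes whose 300-base promoter holds the interferon-stimulated response element (blue) or the gamma-activated site (orange), with the number of genes above each bar. The response element is in 3.99% of all genes of the table and in 67.7% of the members, 63.2% of type I targets and all 5 type II targets found in it.

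The windows of the 5 type II targets are shown because interferon gamma induces these genes and both comparisons with the control gave them log2 fold changes above 0. Each is written 5′ to 3′ on the strand of the gene, from RefSeq with GRCm38.p6 coordinates, and capitals mark matches to the response element with 20 bases on either side.
Gbp2, chr3:142620584-142620633, plus strand: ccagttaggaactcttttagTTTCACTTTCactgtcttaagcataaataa
Gbp3, chr3:142559979-142560034, plus strand: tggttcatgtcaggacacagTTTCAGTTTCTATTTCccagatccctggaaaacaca
Gbp7, chr3:142530263-142530312, plus strand: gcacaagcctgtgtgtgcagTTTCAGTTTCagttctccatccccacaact
Irgm1, chr11:48871415-48871470, minus strand: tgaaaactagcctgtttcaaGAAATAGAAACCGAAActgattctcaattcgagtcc
Igtp, chr11:58199502-58199551, plus strand: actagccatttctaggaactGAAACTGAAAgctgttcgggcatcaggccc
In Gbp3 and Irgm1 a pair of overlapping matches formed the capital run. The 3 Gbp genes lie in the same region of chromosome 3 in the GRCm38 annotation, all on the plus strand. Gbp7 is at chr3:142530342-142550149, Gbp3 at chr3:142560026-142573209 and Gbp2 at chr3:142620602-142638008. On chromosome 11 lie Irgm1, at chr11:48861968-48871683, and Igtp, at chr11:58199556-58207591. The annotated spans of Gbp2, Gbp3 and Irgm1 start upstream of the RefSeq start site, so their windows lie partly or wholly within these spans.

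Type I targets whose levels went different ways are set beside them. The same element stood in the promoters of Stat2 and Bst2, both highest in the Kv1.2 libraries, of Ifit1 and Ifit3, which differed little or unevenly between the groups, and of Isg15, which was barely detected. Capitals again mark the response element.
Stat2, chr10:128270256-128270305, plus strand: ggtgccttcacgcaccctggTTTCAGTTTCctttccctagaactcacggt
Bst2, chr8:71537567-71537622, minus strand: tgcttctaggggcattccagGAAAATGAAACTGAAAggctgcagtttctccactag
Ifit1, chr19:34640765-34640833, plus strand: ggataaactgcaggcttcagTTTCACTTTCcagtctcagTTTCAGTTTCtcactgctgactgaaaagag
Ifit3, chr19:34583353-34583436, plus strand: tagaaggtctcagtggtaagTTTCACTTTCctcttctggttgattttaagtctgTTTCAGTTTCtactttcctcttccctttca
Isg15, chr4:156200855-156200916, minus strand: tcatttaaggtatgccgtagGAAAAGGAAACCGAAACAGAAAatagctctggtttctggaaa
Isg15 held 3 overlapping matches and Ifit1 and Ifit3 held 2 separate ones each. These promoters were chosen by the levels and by the match, so they say nothing of how the element and the levels relate over the members. Oasl2, in the same table, held no match in the 300 bases, which says only that these letters were not in that window.

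Among the genes of the signal itself, Stat2 showed the largest contrast between the channels. Stat2, a transcription factor of the type I complex, was at 4.78 and 8.50 CPM in control, 104 and 70.7 CPM in Kv1.2 and 2.99 and 5.34 CPM in Kir2.1 libraries. Both Kv1.2 libraries lay far above the other 4, and the Kir2.1 libraries overlapped the control. The log2 fold change was 3.72 (standard error 1.34, unadjusted p = 0.0274) for Kv1.2, −0.67 (standard error 1.22, unadjusted p = 0.598) for Kir2.1 and −4.39 (standard error 1.39, unadjusted p = 0.0155) for Kir2.1 against Kv1.2, the last with an adjusted p of 0.739 in edgeR's quasi-likelihood test and 0.00291 in DESeq2. Irf9, which gives the complex its DNA contact, was at 24.4 and 12.5 CPM in control, 24.1 and 67.97 CPM in Kv1.2 and 41.2 and 81.96 CPM in Kir2.1 libraries, with overlap of the Kv1.2 libraries and the control and none for Kir2.1. Its changes were 1.32 (standard error 1.17, unadjusted p = 0.294) and 1.74 (standard error 1.18, unadjusted p = 0.183).

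Irf7, the factor that amplifies the production of type I interferon, was at 0 and 3.59 CPM in control, 85.96 and 17.4 CPM in Kv1.2 and 6.25 and 0 CPM in Kir2.1 libraries, so that both Kv1.2 libraries lay above both control libraries, as did 1 of the 2 Kir2.1 libraries. Usp18, the protease that removes ISG15 from proteins and shuts off the type I receptor, was at 8.56 and 22.03 CPM in control, 173 and 15.1 CPM in Kv1.2 and 19.7 and 36.3 CPM in Kir2.1 libraries. Only Kv1.2 replicate 1 was high. The log2 fold change of Usp18 was 2.62 (standard error 1.44, unadjusted p = 0.11) for Kv1.2, and −0.020 without that library. The 4 signalling members had a median of 3.17 with Kv1.2 and 0.84 with Kir2.1. At an unadjusted p under 0.05, 1 and 0 of them, respectively, were higher, beside 3.23% and 3.25% of all genes.

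Of the 6 sensors of foreign nucleic acids, 4 lay above 0 in both comparisons with the control, while Zbp1 and Ifi207 lay above 0 for Kv1.2 and below it for Kir2.1. Zbp1, a sensor of left-handed nucleic acids that can trigger necroptosis, was at 0.199 and 3.47 CPM in control, 241 and 50.6 CPM in Kv1.2 and 0 and 0 CPM in Kir2.1 libraries. Its counts were 2 and 29 for control, 3006 and 622 for Kv1.2 and 0 and 0 for Kir2.1 libraries. Its log2 change came to 6.31 (standard error 1.94, unadjusted p = 0.017) for Kv1.2. With the Kir2.1 group set to a floor of 3 counts in sum, Zbp1 was at least 12.4-fold lower there than in the control and at least 1078-fold lower than in the Kv1.2 group, bounds that cover counting error only.

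Ifi204, a DNA sensor of the PYHIN family, was at 0.199 and 7.54 CPM in control, 115 and 79.9 CPM in Kv1.2 and 14.9 and 49.6 CPM in Kir2.1 libraries. All 4 channel libraries exceeded the control, with the Kv1.2 libraries highest, at 4.65 (standard error 1.82, unadjusted p = 0.0372) for Kv1.2 and 3.06 (standard error 1.69, unadjusted p = 0.113) for Kir2.1. Ifi207, a relative, was at 28.6 and 0.120 CPM in control, 68.3 and 35.001 CPM in Kv1.2 and 3.35 and 0.181 CPM in Kir2.1 libraries, and both Kv1.2 libraries lay above both Kir2.1 libraries while the controls disagreed. The RNA helicases behaved otherwise. Ddx58 (RIG-I), which senses RNA with 5′ triphosphates, was at 0.398 and 0 CPM in control, 19.7 and 0.244 CPM in Kv1.2 and 37.1 and 11.4 CPM in Kir2.1 libraries. It was higher in the Kir2.1 group without overlap (6.83 (standard error 3.20, unadjusted p = 0.07)), and the Kv1.2 libraries disagreed with each other. Dhx58 (LGP2), a regulator of the other helicases, was at 0.199 and 11.3 CPM in control, 27.9 and 42.4 CPM in Kv1.2 and 38.2 and 34.8 CPM in Kir2.1 libraries. Its 4 channel libraries were alike and above the control, at a log2 fold change for Kir2.1 of 2.67 (standard error 1.91, unadjusted p = 0.204). Ifih1 (MDA5), a sensor of long double-stranded RNA, was at 2.59 and 0 CPM in control, 18.7 and 0 CPM in Kv1.2 and 3.44 and 52.9 CPM in Kir2.1 libraries, with both Kir2.1 libraries above the control. The 6 sensors had a median log2 fold change of 3.75 with Kv1.2 and 2.86 with Kir2.1.

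The OAS family makes the messenger that activates RNase L, which degrades RNA. Oasl2, an OAS-like member, was at 0.199 and 0 CPM in control, 41.6 and 43.4 CPM in Kv1.2 and 0.634 and 31.7 CPM in Kir2.1 libraries. Summed over the group, 2 counts in the control stood against 1052 with Kv1.2 and 357 with Kir2.1, a ratio of 390.7 (95% interval of the counts 107.9 to 3230) and of 148.7 (40.9 to 1233) after scaling. Nearly all of the Kir2.1 counts came from replicate 2. Oas2 was at 0.199 and 0.479 CPM in control, 28.2 and 12.7 CPM in Kv1.2 and 25.2 and 0.0906 CPM in Kir2.1 libraries, with a log2 fold change of 5.87 (standard error 2.96, unadjusted p = 0.0873) for Kv1.2 and a Kir2.1 group split in the opposite way to Oasl2. Oas1a was at 21.01 and 9.22 CPM in control, 39.6 and 22.1 CPM in Kv1.2 and 15.04 and 10.5 CPM in Kir2.1 libraries, with both Kv1.2 libraries just above both control libraries, at 1.03 (standard error 1.54, unadjusted p = 0.525) for Kv1.2. Oas3, below the count minimum, had 103 counts in Kv1.2 replicate 1 and at most 5 in any other library. The 3 tested OAS members had a median of 5.87 for Kv1.2 and 5.18 for Kir2.1.

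IFIT proteins bind viral RNA that lacks the host's cap methylation, and these classical type I targets differed little or unevenly between the groups. Ifit3 was at 112 and 76.9 CPM in control, 126 and 120.4 CPM in Kv1.2 and 18.8 and 130.04 CPM in Kir2.1 libraries. Apart from Kir2.1 replicate 1, all libraries were alike, with the Kv1.2 libraries a little above the control, with a log2 change of 0.39 (standard error 0.98, unadjusted p = 0.707) with Kv1.2 and −0.34 (standard error 0.98, unadjusted p = 0.738) with Kir2.1, the latter 0.46 without that library. Ifit1 was at 33.8 and 15.2 CPM in control, 84.4 and 0 CPM in Kv1.2 and 0.181 and 38.8 CPM in Kir2.1 libraries, so that 1 library of each channel group was at or near 0 and the other above the control. Ifit2 was at 0.398 and 0.359 CPM in control, 19.5 and 0 CPM in Kv1.2 and 8.06 and 0.453 CPM in Kir2.1 libraries, with counts almost only in Kv1.2 replicate 1 and Kir2.1 replicate 1. Ifit3b, which shares sequence with Ifit3, was at 8.86 and 17.0003 CPM in control, 22.8 and 15.1 CPM in Kv1.2 and 7.52 and 1.18 CPM in Kir2.1 libraries. Isg15 had counts of 1 and 0 for control, 1 and 12 for Kv1.2 and 2 and 0 for Kir2.1 libraries. The 4 tested members of this group had a median log2 fold change of 0.67 for Kv1.2 and −0.34 for Kir2.1, with 0 of 4 at an unadjusted p under 0.05 in either comparison. Of all genes, 3.23% and 3.25% were higher at that p, so 0 of 4 is near the background.

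The other antiviral effectors held the most abundant members. Ifitm3 was at 306 and 833 CPM in control, 1473 and 1494 CPM in Kv1.2 and 440.3 and 545 CPM in Kir2.1 libraries. Both Kv1.2 libraries were the highest and nearly equal, and the Kir2.1 libraries lay within the range of the control. The log2 fold change was 1.38 (standard error 0.63, unadjusted p = 0.0626) for Kv1.2 and −1.59 (standard error 0.63, unadjusted p = 0.039) for Kir2.1 against Kv1.2. Rtp4 was at 166 and 82.2 CPM in control, 1109.7 and 510.4 CPM in Kv1.2 and 277 and 331 CPM in Kir2.1 libraries, which ordered the groups without overlap as control, Kir2.1 and Kv1.2. Its changes were 2.71 (standard error 0.69, unadjusted p = 0.00574) for Kv1.2, the smallest p among the type I targets there, 1.29 (standard error 0.66, unadjusted p = 0.0914) for Kir2.1 and −1.41 (standard error 0.66, unadjusted p = 0.0702) between the channels.

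Bst2 (tetherin), which holds budding virus at the cell surface, was at 15.6 and 15.7 CPM in control, 240.4 and 73.6 CPM in Kv1.2 and 40.3 and 52.1 CPM in Kir2.1 libraries. The control libraries were nearly equal, and the groups again did not overlap, at 3.32 (standard error 0.98, unadjusted p = 0.0112) for Kv1.2, 1.56 (standard error 0.92, unadjusted p = 0.132) for Kir2.1 and −1.76 (standard error 0.92, unadjusted p = 0.0961) between them. Trim30a, a ubiquitin ligase of the TRIM family, was at 145 and 22.1 CPM in control, 139 and 139 CPM in Kv1.2 and 185 and 32.3 CPM in Kir2.1 libraries, and Sp100, a protein of nuclear bodies, at 146 and 16.9 CPM in control, 217 and 54.3 CPM in Kv1.2 and 78.3 and 0.815 CPM in Kir2.1 libraries, and neither separated the groups. Parp14, an ADP-ribosyltransferase, was at 40.5 and 13.2 CPM in control, 79.2 and 62.9 CPM in Kv1.2 and 39.4 and 17.5 CPM in Kir2.1 libraries, with both Kv1.2 libraries above the other 4. Over the 9 antiviral effectors the median was 1.38 for Kv1.2 and 0.08 for Kir2.1. At an unadjusted p under 0.05, 2 and 0 were higher, beside 3.23% and 3.25% of all genes.

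Members with few counts went several ways. Rsad2 (viperin), which makes a chain-terminating nucleotide, had 3 and 1 counts for control, 0 and 1 for Kv1.2 and 12 and 50 for Kir2.1 libraries. The Kir2.1 group was 69.5-fold above the Kv1.2 group (95% interval of the counts 12.0 to 2790), and the Kv1.2 group was 5.39-fold below the control (0.533 to 265.2). Cmpk2, a mitochondrial nucleotide kinase that lies beside Rsad2 on chromosome 12, had 49 and 2 counts for control, 383 and 0 for Kv1.2 and 1 and 1 for Kir2.1 libraries, a pattern resting on 1 library each of the control and Kv1.2 groups. This put the Kir2.1 group 30.6-fold below the control (8.05 to 259.6). Mx1, a GTPase against influenza virus that is defective in many laboratory mice, had counts almost only in 1 control and 1 Kv1.2 library, at 93 and 316.

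Of the other interferon-induced genes, Ifi27l2a was at 253 and 123 CPM in control, 653 and 729 CPM in Kv1.2 and 229 and 147 CPM in Kir2.1 libraries, so that the Kv1.2 libraries lay above the other 4. Its change was 1.88 (standard error 0.63, unadjusted p = 0.0206) for Kv1.2 and −1.88 (standard error 0.63, unadjusted p = 0.0205) for Kir2.1 against Kv1.2. Ifi27, its neighbour, was at 131 and 488 CPM in control, 139 and 104 CPM in Kv1.2 and 288 and 192 CPM in Kir2.1 libraries and gave −1.35 (standard error 0.77, unadjusted p = 0.123) for Kv1.2, 1 of only 2 tested members below 0 there. Lgals3bp, a secreted glycoprotein that binds galectins, was at 59.4 and 22.5 CPM in control, 430.3 and 233 CPM in Kv1.2 and 109.9 and 45.5 CPM in Kir2.1 libraries. It separated the Kv1.2 libraries from the rest, at 3.02 (standard error 0.88, unadjusted p = 0.0108) for Kv1.2 and −2.09 (standard error 0.85, unadjusted p = 0.0424) between the channels. Xaf1, a pro-apoptotic antagonist of XIAP, was at 41.4 and 88.95 CPM in control, 234 and 158 CPM in Kv1.2 and 155 and 125 CPM in Kir2.1 libraries. Its 4 channel libraries exceeded the control, at 1.59 (standard error 0.73, unadjusted p = 0.065) and 1.11 (standard error 0.72, unadjusted p = 0.167). Ifi44 was at 0.0996 and 0.239 CPM in control, 37.7 and 12.7 CPM in Kv1.2 and 0.453 and 0.0906 CPM in Kir2.1 libraries, or 3, 626 and 6 counts per group, a ratio of 155.0 (52.8 to 753.6) for Kv1.2 and 1.67 (0.356 to 10.3) for Kir2.1.

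Schlafen proteins restrain translation and the growth of immune cells. Slfn2 was at 45.6 and 0 CPM in control, 127 and 57.4 CPM in Kv1.2 and 19.02 and 77.2 CPM in Kir2.1 libraries, Slfn8 at 32.7 and 0 CPM in control, 38.5 and 0.244 CPM in Kv1.2 and 50.5 and 0 CPM in Kir2.1 libraries and Slfn5 at 0.498 and 0.718 CPM in control, 0.401 and 21.7 CPM in Kv1.2 and 8.79 and 33.1 CPM in Kir2.1 libraries. Libraries of 1 group disagreed for all 3, and 0 of 3 were past an unadjusted p under 0.05 in any comparison. Of all genes, 2.85% to 4.02% were higher at that p, so 0 of 3 is near the background.

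Taking the 23 tested type I targets as a list, 22 lay above 0 for Kv1.2 with a median log2 fold change of 2.62. At an unadjusted p under 0.05, 6 were higher, beside 3.23% of all genes. For Kir2.1 15 lay above 0 and 8 below, with a median of 0.87, and 1, Oasl2, was higher at that p, beside 3.25% of all genes. Oasl2 had passed the count minimum through channel libraries alone. Between the channels 18 lay below 0 and 5 above, with a median of −1.27. At that p 3 were lower and 1 higher, beside 2.05% and 4.02% of all genes. Beside the type II medians of 4.52, 2.26 and −2.06, the type I medians were smaller in size in each comparison, and no test of this difference between the lists was made. Without Kv1.2 replicate 1 the type I median was 1.57 for Kv1.2 and −0.51 between the channels, and for Kir2.1 it was 0.46 without Kir2.1 replicate 1 and 1.40 without control replicate 2.

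Genes upstream of the members were read from lists of the pathway. The 10 interferon genes looked up, of the alpha, beta, gamma, epsilon, kappa and lambda kinds, were all below the count minimum, and Ifng, which encodes interferon gamma, had counts only in Kv1.2 replicate 2, at 0.163 CPM. Of the 8 tested receptors and kinases, 0 were past an unadjusted p under 0.05 in any comparison. At that p 2.85% to 4.02% of all genes were higher, so 0 of 8 is near the background. The receptor chain Ifngr1 was at 627 and 58.4 CPM in control, 1037 and 691 CPM in Kv1.2 and 616 and 1373 CPM in Kir2.1 libraries, and control replicate 2 was the lowest library, as it was for Ifnar2, at 178 and 17.5 CPM in control, 337 and 348 CPM in Kv1.2 and 67.9 and 459.8 CPM in Kir2.1 libraries.

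Of 3 tested inhibitors, Pias1, a SUMO ligase, and Ptpn6, a phosphatase of myeloid cells, were higher at an unadjusted p under 0.05 for Kv1.2, at 2.36 (standard error 0.85, unadjusted p = 0.0268) and 2.00 (standard error 0.84, unadjusted p = 0.0483), and 0 of 3 passed for Kir2.1. Of all genes, 3.23% and 3.25% were higher at that p in these comparisons.

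Cxcl9, a T cell chemokine induced by interferon gamma, was at 0.199 and 0 CPM in control, 108 and 2.93 CPM in Kv1.2 and 0.362 and 0.181 CPM in Kir2.1 libraries, and nearly all of it came from Kv1.2 replicate 1. Cxcl10, induced by both kinds of interferon, was at 42.6 and 0 CPM in control, 168 and 95.7 CPM in Kv1.2 and 43.9 and 28.3 CPM in Kir2.1 libraries, and the Kv1.2 libraries were again the highest. Among 3 genes of ISG15 conjugation, Ube2l6, the conjugating enzyme, was at 0.0996 and 11.97 CPM in control, 330.4 and 168 CPM in Kv1.2 and 0.272 and 163 CPM in Kir2.1 libraries, a pattern of high and low libraries like that of Igtp, which also set Kir2.1 replicate 1 beside the control. Mavs, the adaptor of the RNA helicases, was at 0.0996 and 0 CPM in control, 0 and 0 CPM in Kv1.2 and 19.8 and 1.99 CPM in Kir2.1 libraries, and it was 1 of 8 tested genes of nucleic acid sensing past an unadjusted p under 0.05 in Kir2.1 against Kv1.2, at 9.89 (standard error 3.34, unadjusted p = 0.0248). Of all genes, 4.02% were higher at that p in this comparison.

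Some members share sequence with other genes, and reads that align to several places were removed by the authors. Of the 75-base stretches of their annotated transcripts, 47.6% of those of Oas1a occurred also in Oas1g, 41.1% of those of Ifit3 in Ifit3b, 35.7% of those of Ifit3b in Ifit3, 13.2% of those of Ifi204 in other PYHIN genes, 11.3% of those of Gbp7 in Gbp3 or a predicted gene, 10.5% of those of Rtp4 in the predicted gene Gm45338, and 7.80% of those of Igtp in Irgm2. Their counts come from the remaining parts and are less certain. Exons of 11 members overlap another annotated gene, among them Igtp with Irgm2, Rtp4 with Gm45338, Irf9 with Rnf31 and Dhx58 with an antisense transcript. The library protocol does not mark strand, and reads of such partners cannot be told apart.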

How the data were processed

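By the study's methods and the submitters' processing notes, reads were trimmed and then aligned by STAR 2.7.0f to the Ensembl GRCm38 genome. The authors dropped low-quality and multi-mapping alignments with SAMtools 1.9, and Subread 1.6.4 assigned reads to genes. The deposited values used here are these whole-number counts per gene, without normalization. Deposited CPM, FPKM and TPM tables, and tables of the authors' own comparisons with fold changes and p-values, were not used. The labels give paired reads of 100 bases and the methods single reads of 75 bases. Whether counting used strand is not given in these sources.

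Samples were grouped by their labels. The analysis ran in R 4.3.3 (edgeR 4.0.16, DESeq2 1.42.0). A gene was tested if 2 or more libraries reached 1 CPM, which left 12275. All groups entered a single edgeR quasi-likelihood fit with TMM scaling, and Benjamini-Hochberg adjustment (threshold 0.05) ran over every gene tested. CPM are per TMM-scaled library size. Standard errors were derived from the log2 fold change and the F statistic of its test. Ratios of groups with at most 3 counts carry a 95% interval of the counts, and a group at 0 was set to a floor of 3 counts over the group. Amplified reads are not independent molecules, so both cover only the error of counting. The labels call the libraries biological replicates of different pools of mice, and with 2 a group the spread rests on few samples.

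The members, their roles, their grouping into type I and type II targets, the pathway and marker lists and the motifs were chosen with earlier results of these data known. Every member could be named. Values in each library were given for the most abundant members of a role group and those with the smallest p, and for others of these 42 members that were then named because their libraries differed. From the pathway lists, genes with the smallest p against the control were named, apart from results that are not reported here, and Ifng, Ifngr1, Ifnar2, Cxcl10 and Ube2l6 were named by their role after their values were seen. Coordinates come from GENCODE M21 on GRCm38. Alternatives were DESeq2, the likelihood ratio test, filterByExpr or no count minimum, RLE scaling or library size only, shares over tested genes only, only the groups compared, a block for the replicate number and fits that drop each single library. The steps were run on simulated data, where recovery of known folds was required only at a spread smaller than that of these libraries.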

Additional observations from a re-analysis of the deposited data

Results flagged for a closer look

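Rsad2 and Zbp1 were the members whose Kv1.2 and Kir2.1 libraries lay on opposite sides of the control. Both Kv1.2 libraries of Rsad2 were below both control libraries and both Kir2.1 libraries above them, on 4, 1 and 62 counts per group, with the Kir2.1 group 69.5-fold above the Kv1.2 group. For Zbp1 the directions were the other way round, on 31, 3628 and 0 counts per group, with the Kir2.1 group at least 1078-fold below the Kv1.2 group. That the 2 effects differ was not tested beyond the comparison of Kir2.1 with Kv1.2, in which the adjusted p of both genes was 0.739 in edgeR's quasi-likelihood test.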

How the results depend on the processing

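Over 79 results and 1021 alternative values, 941 were classed as the same, and 5 turned direction. A count was the same if it stayed within a fixed ratio of the main count. Medians and shares were the same if they moved by less than the spread within groups. Single genes were the same if they kept their direction and their side of the threshold. Members past an adjusted p of 0.05 numbered 11, 5, 3 and 8 with DESeq2, 6, 1, 1 and 3 under the likelihood ratio test and 2, 2, 1 and 2 with no count minimum, for Kv1.2, Kir2.1, Kir2.1 against Kv1.2 and both channel groups. In the same order, DESeq2 called 10.6%, 8.06%, 5.25% and 10% of all genes. The likelihood ratio test called 5.89%, 1.83%, 0.554% and 8.94%. The share of all genes was not computed for no count minimum, nor for the counts that follow, so those counts have no background beside them. Members higher in Kir2.1 than in the control at an unadjusted p under 0.05 numbered 5 by library size only, 8 with DESeq2, 7 under the likelihood ratio test, 5 with no count minimum and 1 with only the groups compared. Between the channels, 3 were lower by library size only, and 0 were higher with DESeq2 and with no count minimum. For both channel groups 14 were higher with DESeq2.

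With each library left out in turn, the counts at that p ranged from 3 to 15 for Kv1.2, 2 to 6 for Kir2.1, 1 to 6 lower and 0 to 1 higher between the channels and 3 to 9 for both channel groups. Medians of all members ranged from 1.95 to 3.26, 0.56 to 1.69, −1.71 to −0.65 and 1.1995 to 2.34 in the same order. Type I medians ranged from 1.57 to 3.15, 0.46 to 1.40, −1.63 to −0.51 and 1.19 to 1.92. Type II medians ranged from 3.40 to 7.47, 1.92 to 4.46, −2.52 to −0.65 and 2.49 to 5.97. Single genes that turned, with their lowest and highest log2 fold change, were Usp18 for Kv1.2 (−0.020 to 3.49), Gbp3 for Kir2.1 (−0.35 to 6.83), Ifit3 for Kir2.1 (−2.33 to 0.46) and Irgm1 between the channels (−1.05 to 0.091). Fewer members reach the minimum with a library left out, and the cause was otherwise not tested.

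Library size only moved the median of all genes for Kir2.1 from 0.04 to 0.26, and members above 0 from 27 to 29. Replicate numbers name pools, and whether same-numbered libraries shared a day is not given in the labels. Deviations of same-numbered libraries correlated at 0.00979, −0.0321 and −0.00446. With the number as a block, 0 members passed an adjusted p of 0.05 in each comparison, and 12 were higher for Kv1.2 at an unadjusted p under 0.05. At 2 libraries a group and these depths, a change below the spread of single libraries was not detectable.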
